A study of Homo sapiens with 6 samples.

Results

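In all, 10 genes for carriers that move amino acids across the plasma membrane were followed in H1299, an established human lung cancer cell line of the non-small cell type. They are SLC7A5, SLC3A2, SLC7A11, SLC7A6, SLC1A5, SLC1A4, SLC38A1, SLC38A2, SLC7A1 and SLC43A1. All 10 of 10 were measured, each by 1 transcript cluster that the platform annotation pairs with that symbol alone, out of 22375 genes named in this way. The genes were chosen by function and with the differences between the treatments on these same arrays already known. Those differences are therefore given as a description. No p-value is printed for the 10 genes, and where the fit's calls of them are counted, nothing is read from the count.

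The treated cells had been kept for 14 days with 500 nM PD 0332991 (palbociclib, which blocks CDK4 and CDK6, the kinases that drive entry into S phase), and the control cells with DMSO alone. Each treatment had 3 arrays of total RNA. Both groups are of 1 cell line. Separate cultures per array are not stated, so the spread behind each p-value may be technical. The comparison asks which transcripts differ when the kinases that phosphorylate the retinoblastoma protein are inhibited.

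Amino acids are charged or polar and cross the cell membrane through carriers of the solute carrier (SLC) families. Several light chains of the SLC7 family work only when joined to the heavy chain SLC3A2, also called CD98 or 4F2hc, which brings them to the cell surface. Exchangers such as SLC7A5 trade an internal amino acid for an external one, while sodium-coupled carriers such as SLC38A1 and SLC38A2 bring in glutamine and small neutral amino acids. Leucine and arginine that enter in this way are read by the growth-regulating kinase complex mTORC1, and many tumour cells make high levels of these carriers.

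The arrays of a group were alike, with Pearson's r across transcript clusters of 0.993 to 0.995 within groups and 0.969 to 0.973 between them. DMSO replicate 1 and PD 0332991 replicate 2 deviated from their own groups in a like direction, with a correlation of those deviations of 0.412 across genes. Genes are not independent replicates, so these correlations are descriptions. Of the epithelial markers, KRT8 and KRT18 had means of 14.83 and 14.02 in PD 0332991 cells and of 14.03 and 14.05 in DMSO cells. CDH1, KRT19 and the lung markers NKX2-1, NAPSA, SFTPB and SFTPC had both means below the array medians, which ran from 4.85 to 4.98, so these defining markers were not shown to be present. KRT7 and EPCAM averaged 6.175 and 5.104 in PD 0332991 cells and 6.067 and 5.021 in DMSO cells, with EPCAM close to the array medians. The mesenchymal marker VIM averaged 15.10 in PD 0332991 cells and 15.67 in DMSO cells. The 9 measured markers of blood, endothelial and fibroblast cells ranged from 3.69 to 5.03 in PD 0332991 cells and from 3.36 to 4.98 in DMSO cells. Their sums over the list were 37.93 to 39.53 in PD 0332991 arrays and 37.75 to 39.52 in DMSO arrays, and all 9 had both means below the highest array median. PECAM1, 1 of the 9, had means of 3.93 in PD 0332991 cells and 3.53 in DMSO cells (limma adjusted p = 0.0453, n = 3 per group). It was no longer called under 5 of 14 alternatives, among them without PD 0332991 replicate 1 (or 3) and without DMSO replicate 1 (or 2), where the adjusted p reached 0.145.

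Stretches of DNA just before the annotated starts are shown for 5 of the genes, because stress, growth and cell cycle factors are known to act on carrier genes through short motifs. The 5 were picked from the 8 windows, of 16 searched, that hold a motif match, and so do not stand for the windows without one. Each run is the 250 bases upstream of a start in RefSeq (assembly GRCh38.p14), 5′ to 3′ on the strand of the gene, with motif matches in capitals. The windows lie at chr16:87869508-87869757 on the minus strand for SLC7A5, at chr11:62881449-62881698 on the plus strand for SLC3A2, and at chr13:29595689-29595938 on the minus strand for SLC7A1. They lie at chr16:68264276-68264525 on the plus strand for SLC7A6 and at chr19:46784815-46785064 on the minus strand for SLC1A5.
SLC7A5: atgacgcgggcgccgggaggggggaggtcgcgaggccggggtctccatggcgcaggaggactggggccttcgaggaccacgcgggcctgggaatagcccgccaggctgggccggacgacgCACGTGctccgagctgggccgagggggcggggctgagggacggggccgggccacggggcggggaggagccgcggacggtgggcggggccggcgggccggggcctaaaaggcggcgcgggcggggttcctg
SLC3A2: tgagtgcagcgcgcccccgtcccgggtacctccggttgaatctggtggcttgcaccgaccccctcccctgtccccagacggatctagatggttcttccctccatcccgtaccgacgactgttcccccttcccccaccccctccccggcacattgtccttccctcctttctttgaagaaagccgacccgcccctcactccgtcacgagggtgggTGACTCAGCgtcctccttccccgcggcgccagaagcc
SLC7A1: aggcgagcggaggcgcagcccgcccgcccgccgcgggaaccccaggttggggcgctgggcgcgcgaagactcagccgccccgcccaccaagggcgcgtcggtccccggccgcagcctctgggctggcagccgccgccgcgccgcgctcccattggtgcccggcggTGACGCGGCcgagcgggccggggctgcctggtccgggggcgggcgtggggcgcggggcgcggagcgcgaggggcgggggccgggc
SLC7A6: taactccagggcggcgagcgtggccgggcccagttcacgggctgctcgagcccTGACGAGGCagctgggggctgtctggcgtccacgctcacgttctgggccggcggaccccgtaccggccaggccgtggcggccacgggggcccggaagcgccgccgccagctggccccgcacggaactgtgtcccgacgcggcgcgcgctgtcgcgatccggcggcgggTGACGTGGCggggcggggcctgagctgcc
SLC1A5: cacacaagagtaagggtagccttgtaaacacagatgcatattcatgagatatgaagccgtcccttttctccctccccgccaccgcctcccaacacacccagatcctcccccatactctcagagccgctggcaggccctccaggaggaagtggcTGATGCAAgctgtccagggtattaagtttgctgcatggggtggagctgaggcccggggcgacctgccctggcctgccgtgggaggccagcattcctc

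In these runs the capitals mark an E-box at 130 to 125 bases before the start of SLC7A5 and antioxidant response elements before SLC3A2, SLC7A1 and SLC7A6. In the SLC1A5 window shown, which is not the only one of that gene, the capitals mark a CARE. This is the CCAAT/enhancer-binding protein and ATF response element that ATF4 binds. Of the other SLC1A5 windows, the one at chr19:46788595-46788844 holds no match. The one at chr19:46787294-46787543 holds an E-box and an antioxidant response element. Motifs were searched on both strands of 16 windows of 9 of the genes, all but SLC7A11, whose entry was missing. The CARE was searched as TGATGNAA and was found in 1 of the 16 windows, against 3.14% of all 35116 promoter windows of the same length. The E-box CACGTG, a binding motif of MYC with MAX, was found in 3 of the 16 windows, against 6.34% of all windows. The antioxidant response element, bound by NFE2L2, was searched as TGACNNNGC and was found in 4 of the 16 windows, against 10.9% of all windows. The E2F motif spelled TTTCGCGC was found in 1 of the 16 windows, at another start of SLC3A2, against 0.439% of all windows, and the spelling TTTGGCGC in 0 of them, against 0.55%. No matches overlapped each other. A match is a stretch of letters and not a shown binding site, and binding was not measured on these arrays.

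**Figure D1:**
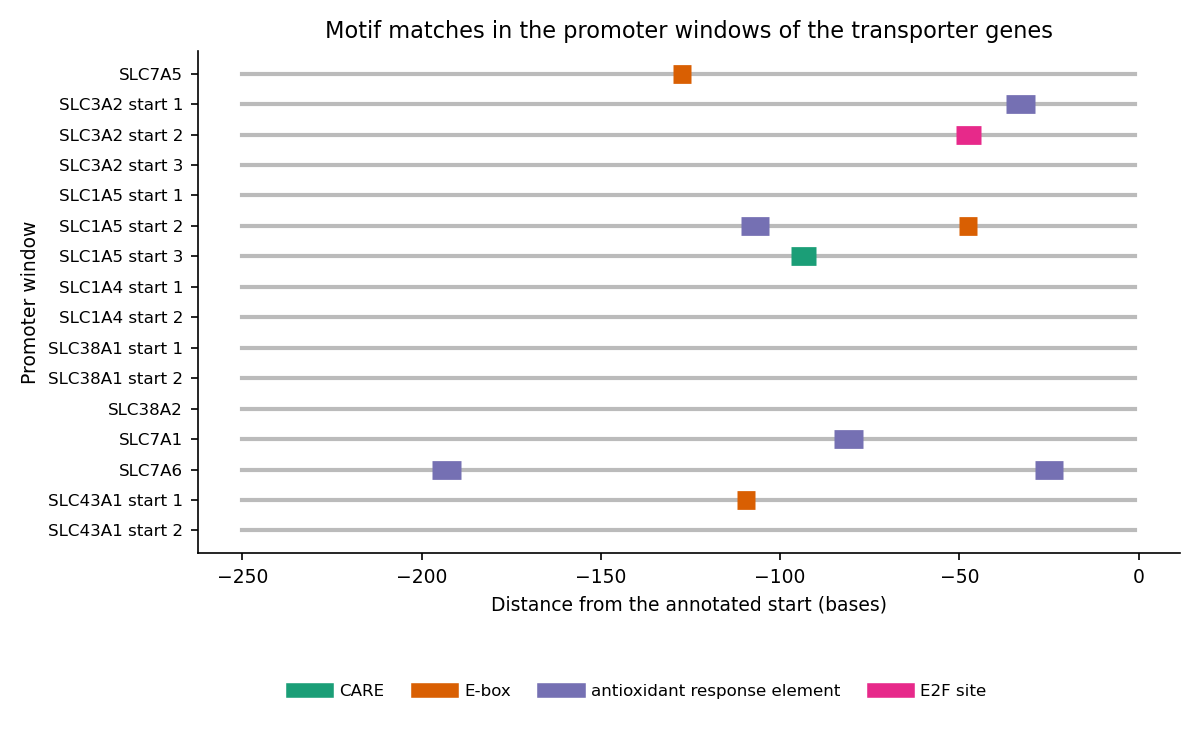
Promoter windows of 9 transporter genes, 1 line per annotated start, with the distance from that start in bases on the horizontal axis. Coloured blocks mark the letters of each motif, and the window of SLC7A6, the gene whose groups overlapped, holds 2 antioxidant response elements.

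All 10 genes had a lower mean in PD 0332991 cells than in DMSO cells, and 4 of them, SLC7A5, SLC7A11, SLC7A1 and SLC3A2, were lower by more than 1 on the log2 scale. Over all genes, 5.43% were lower by as much. The 3 arrays of each treatment did not overlap in 9 of the 10 genes, where this held for 47.5% of all genes. In the limma fit across all genes, 9 of the 10 passed an adjusted p under 0.05 in the lower direction and 0 in the higher direction. In that fit 38.1% of all genes passed in either direction, 18.5% lower and 19.6% higher in PD 0332991 cells. That share includes genes with low values. An alternative fit held only the 14441 genes with a mean above the median of all transcript clusters, all 10 transporters among them. In it 8792 genes passed, 4278 lower and 4514 higher, and 9 of the 10 transporters passed. Since the differences helped to choose the 10 genes, these counts are no evidence about them. The median difference of the 10 genes was -0.68, and that of all genes was 0.00. In bulk RNA, fewer cells of a kind and less RNA per cell cannot be told apart.

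**Figure D2:**
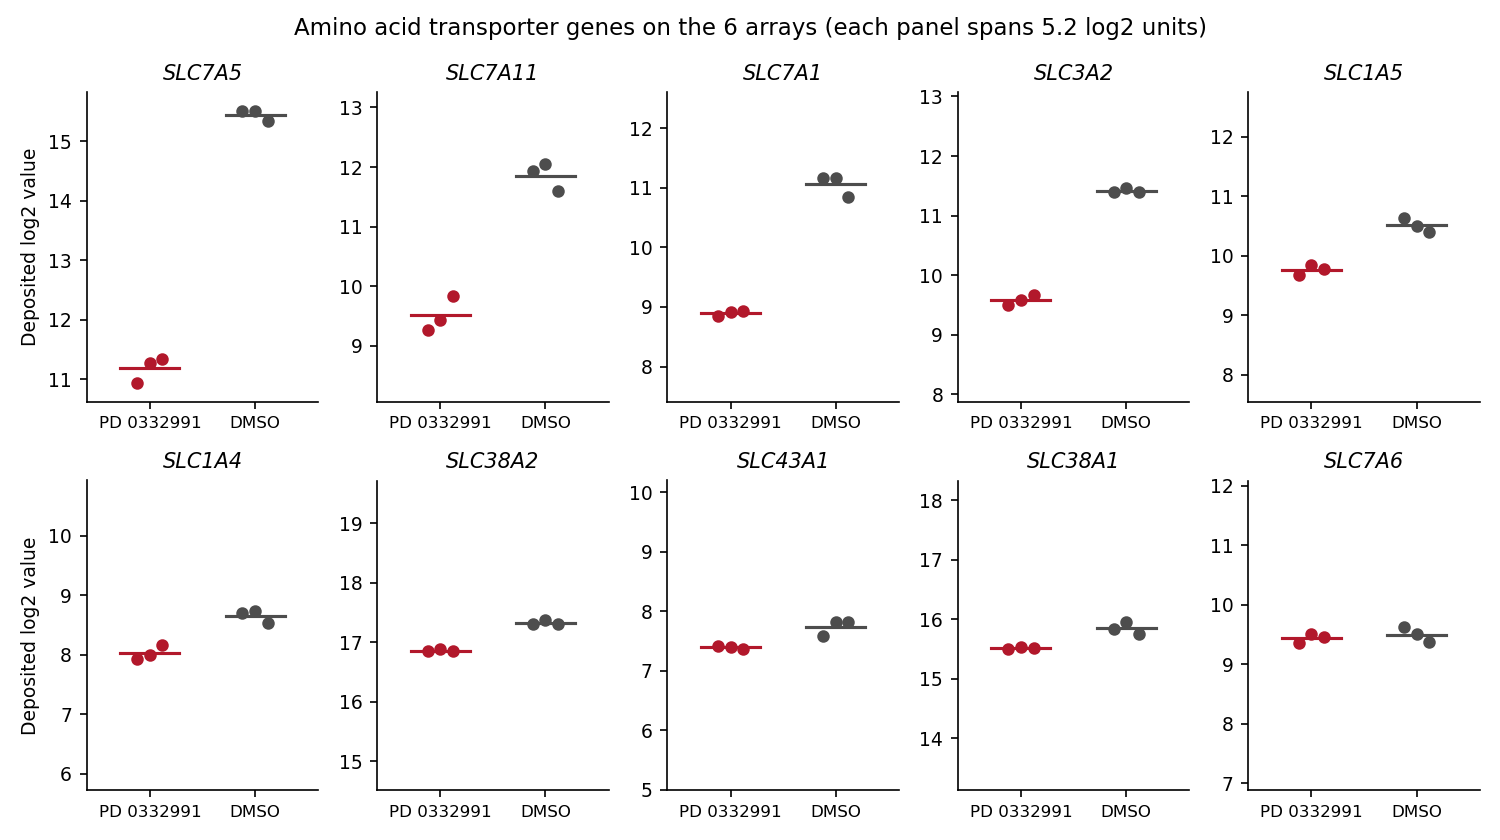
Deposited log2 value (vertical axis) of each transporter gene on each array, with PD 0332991 left of DMSO, points for arrays and lines for group means. Every panel spans the same number of log2 units. Panels run in order of the mean difference, from SLC7A5, with closest arrays 3.99 apart, to SLC7A6, whose groups overlap.

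The leucine transporter gene SLC7A5 had the deepest difference. SLC7A5 encodes LAT1, the light chain that takes up large neutral amino acids such as leucine, phenylalanine and tryptophan in exchange for internal ones. Its deposited log2 values were 10.94, 11.27 and 11.34 in PD 0332991 cells, against 15.51, 15.50 and 15.33 in DMSO cells. The highest PD 0332991 array lay 3.99 below the lowest DMSO array, so the groups were far apart. SLC7A5 averaged 11.18 ± 0.21 in PD 0332991 cells and 15.45 ± 0.10 in DMSO cells (SD, n = 3 each), a difference of -4.26 ± 0.12 (SE of the limma fit). That difference was rank 53 from the lowest among the 22375 genes. SLC7A5P1, a pseudogene with high similarity to SLC7A5 whose values were looked up after those of SLC7A5 were seen, averaged 6.58 ± 0.27 in PD 0332991 cells and 8.78 ± 0.65 in DMSO cells. Whether its probes and those of SLC7A5 detect each other's transcripts was not tested.

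The heavy chain gene SLC3A2 was lower by less than its partner SLC7A5. SLC3A2 had values of 9.49, 9.58 and 9.67 in PD 0332991 cells, against 11.39, 11.46 and 11.39 in DMSO cells. The DMSO arrays lay close together, and the groups did not overlap. The means were 9.58 ± 0.09 in PD 0332991 cells and 11.41 ± 0.04 in DMSO cells (SD, n = 3 each), and the difference was -1.83 ± 0.07 (SE). SLC3A2 also serves SLC7A11 and SLC7A6, so its transcript level is shared by carriers of different substrates.

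The cystine transporter gene SLC7A11 was the most variable of the 10 within groups. SLC7A11 encodes xCT, which takes up cystine for glutathione synthesis and releases glutamate. Its values were 9.27, 9.43 and 9.84 in PD 0332991 cells, against 11.93, 12.05 and 11.59 in DMSO cells. Even the closest arrays of the 2 groups were 1.75 apart. The means were 9.51 ± 0.29 in PD 0332991 cells and 11.86 ± 0.24 in DMSO cells (SD, n = 3 each), a difference of -2.34 ± 0.17 (SE). The antisense transcript SLC7A11-AS1, named after its values were seen, had values of 4.37, 4.29 and 4.38 in PD 0332991 cells and 4.35, 4.27 and 4.57 in DMSO cells, all below the array medians.

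SLC7A6, the remaining light chain, was the exception. SLC7A6 encodes y+LAT2, which exports arginine in exchange for neutral amino acids and sodium. It had values of 9.35, 9.50 and 9.45 in PD 0332991 cells, against 9.62, 9.50 and 9.37 in DMSO cells. The groups overlapped, and the difference of -0.06 ± 0.09 (SE) was smaller than the spread of the arrays, with SDs of 0.08 in PD 0332991 cells and 0.12 in DMSO cells. After quantile normalization the sign turned, to 0.02. Among the 10 genes, the light chains of SLC3A2 thus had differences of -4.26 (SLC7A5), -2.34 (SLC7A11) and -0.06 (SLC7A6). SLC7A7 and SLC7A8, further light chains of the same heavy chain, averaged 4.31 and 5.07 in PD 0332991 cells and 4.30 and 5.05 in DMSO cells, near or below the array medians, and neither was called (limma adjusted p = 0.964 and 0.947). SLC7A10, a light chain known for alanine, serine and cysteine exchange in brain and named after its values were seen, went the other way. It had values of 5.09, 4.98 and 5.11 in PD 0332991 cells and 4.69, 4.64 and 4.73 in DMSO cells, and rose by 0.37 ± 0.07 (SE; adjusted p = 0.00321), with its DMSO arrays below all array medians. Whether SLC7A7, SLC7A8 or SLC7A10 transcripts were present was not shown by the arrays.

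SLC7A1, which works without a heavy chain, was lower by a similar size to SLC7A11. SLC7A1 encodes CAT1, the main uptake route for arginine and lysine in many cells. Its values were 8.85, 8.92 and 8.94 in PD 0332991 cells, against 11.16, 11.17 and 10.85 in DMSO cells. The PD 0332991 arrays lay close together and well below all DMSO arrays. The means were 8.90 ± 0.05 in PD 0332991 cells and 11.06 ± 0.18 in DMSO cells (SD, n = 3 each), with a difference of -2.15 ± 0.10 (SE). Its difference lay 0.19 from that of SLC7A11, where the SE of that step, with both genes taken as independent, was 0.19.

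The exchangers of the SLC1 family had smaller differences. SLC1A5 encodes ASCT2, an exchanger that brings in glutamine. It had values of 9.67, 9.84 and 9.78 in PD 0332991 cells, against 10.63, 10.50 and 10.40 in DMSO cells, so that every PD 0332991 array lay below every DMSO array. The difference was -0.75 ± 0.08 (SE). SLC1A4 encodes ASCT1, which exchanges serine, alanine and cysteine. Its values were 7.92, 8.0 and 8.17 in PD 0332991 cells, against 8.70, 8.73 and 8.54 in DMSO cells. These groups also did not overlap, at a difference of -0.62 ± 0.09 (SE). The differences of the 2 genes were 0.12 apart, with an SE of 0.12 when both are taken as independent.

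The sodium-coupled carriers SLC38A1 and SLC38A2 had high values in both treatments and small differences. SLC38A2, which cells are known to make more of when amino acids are short, had values of 16.85, 16.88 and 16.85 in PD 0332991 cells, against 17.30, 17.38 and 17.30 in DMSO cells. The 3 arrays of PD 0332991 cells were nearly equal, and the difference was -0.47 ± 0.06 (SE). Its values exceed 16, which raw intensities of a 16-bit scan cannot reach in log2 units, and how the deposited scale was made is not stated. SLC38A1, a glutamine carrier, had values of 15.50, 15.53 and 15.51 in PD 0332991 cells, against 15.83, 15.96 and 15.76 in DMSO cells. Its difference of -0.33 ± 0.08 (SE) became -0.14 after quantile normalization, where it was no longer called.

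SLC43A1 encodes LAT3, a carrier that lets branched-chain amino acids pass without sodium or a heavy chain. Its values were 7.41, 7.40 and 7.37 in PD 0332991 cells, against 7.58, 7.82 and 7.82 in DMSO cells. The groups were 0.17 apart at their closest arrays, and the difference was -0.35 ± 0.09 (SE). Without DMSO replicate 2 the difference was -0.31 and was no longer called.

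Ordered by their differences, the genes ran from SLC7A5 through SLC7A11, SLC7A1, SLC3A2, SLC1A5, SLC1A4, SLC38A2, SLC43A1 and SLC38A1 to SLC7A6. Each gene was read by its own probes, and whether sizes compare between probes was not tested. Between neighbours in this order the widest steps were 1.92 ± 0.20, between SLC7A5 and SLC7A11, and 1.09 ± 0.11, between SLC3A2 and SLC1A5 (SE from both genes' own SEs, taken as independent). The step between SLC7A1 and SLC3A2 was 0.32 ± 0.12 and that between SLC38A1 and SLC7A6 was 0.27 ± 0.11. The other steps, among them 0.02 ± 0.11 between SLC43A1 and SLC38A1, were at most 1.43 times their SE. All genes were read on the same arrays, so the SEs of the steps are approximate. They do not settle the order of neighbours. Over 15 alternative settings every gene but SLC7A6 was lower under all 15, and SLC7A6 was lower under 14. The filter, probe set rule, eBayes options and replicate block could not change these differences. Each gene has 1 transcript cluster and the groups are balanced, so those settings were no check of the direction. Among the PD 0332991 arrays, replicate 1 held the lowest value in 9 of the 10 genes. Among the DMSO arrays, replicate 3 held it in 8 of the 10. The medians of these arrays, 4.97 and 4.98, were the highest of their groups.

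**Figure D3:**
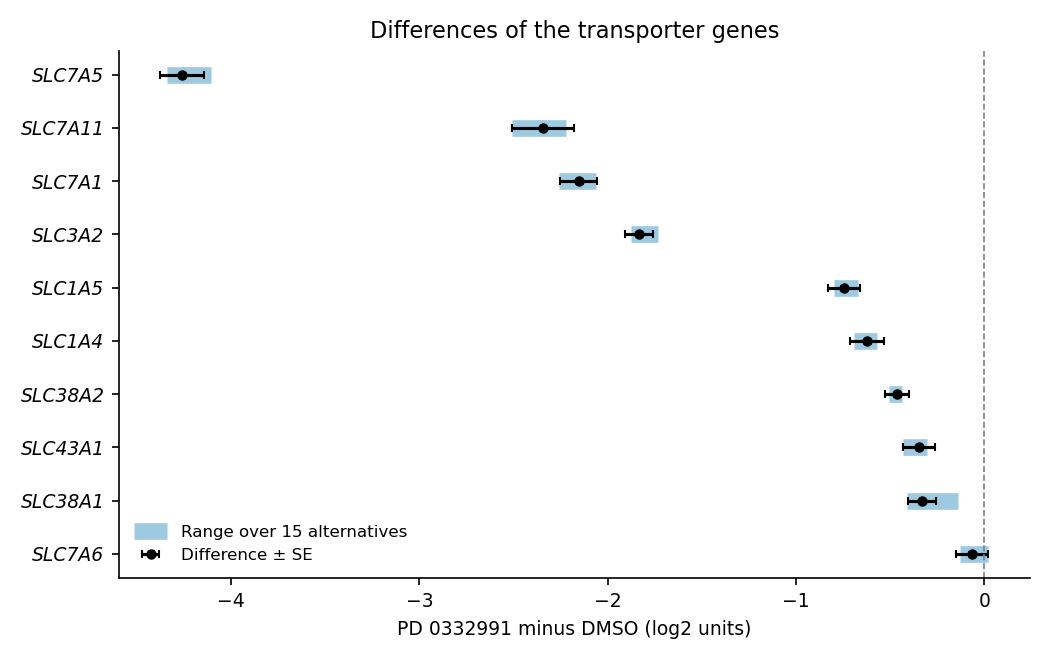
Difference of each transporter gene, PD 0332991 minus DMSO in log2 units, as points with the standard error, over bars for the range across 15 alternative settings. SLC7A5 at -4.26 stands apart from the next 3 genes, which lie between -2.34 and -1.83, and only the range of SLC7A6 crosses 0.

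The genes whose array profile was nearest to that of SLC7A5 were CDC6, PRR11, KIF14, CDKN3 and PRC1. Likeness was the Euclidean distance over the 6 arrays between values centred on each gene's own mean, and it ran from 0.218 for CDC6 to 0.384 for PRC1. The nearest to SLC7A11 were RTKN2, SLC7A1, LIN28B, ARHGAP19 and NSD2, at distances of 0.418 to 0.457. SLC7A1, itself among the 10 transporters, lay at 0.438 from SLC7A11. With 2 groups of arrays, this measure mostly ranks genes by how alike their differences are.

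Other carriers at the plasma membrane mostly did not pass the test. All 30 listed genes were measured, of which 3 fell, 4 rose and 23 did not pass, at a median difference of 0.02 against 0.00 for all genes. Over all genes 38.1% were called, 18.5% lower and 19.6% higher, and the counts of the lists below stand beside the same shares. This list and those below were also chosen with earlier results of these data known, so their counts and p-values are descriptions. In 19 of the 30, including 18 that did not pass, both group means lay below the highest array median, so that a response or its lack was not shown in them. SLC6A15, a sodium-coupled carrier of proline and branched-chain amino acids, fell by 1.41 ± 0.10 (SE; limma adjusted p = 1.38e-05, n = 3 per group), and had means of 6.71 ± 0.07 in PD 0332991 cells and 8.12 ± 0.19 in DMSO cells (SD). The taurine carrier gene SLC6A6 fell by 0.83 ± 0.07 (adjusted p = 2.61e-05), and SLC16A10, for a carrier of aromatic amino acids, fell by 0.72 ± 0.07 (adjusted p = 9.18e-05). The 4 that rose, SLC1A1, SLC7A10, SLC1A3 and SLC38A4, were named after their values were seen, with differences of 0.52, 0.37, 0.31 and 0.28 (limma adjusted p = 0.0021, 0.00321, 0.0163 and 0.0255, n = 3 per group). Without PD 0332991 replicate 1, and again without DMSO replicate 2, SLC1A3 and SLC38A4 were no longer called, which left 2 rises. Over the alternatives run, SLC1A3 stayed called under 13 of 15 and SLC38A4 under only 8 of 14. The means of SLC38A4, 4.59 in PD 0332991 cells and 4.31 in DMSO cells, lay below the array medians. SLC43A2, for the carrier LAT4, a close relative of SLC43A1, averaged 6.14 in PD 0332991 cells and 6.16 in DMSO cells and did not pass (adjusted p = 0.871).

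Of 10 lysosomal amino acid transporters 3 rose, 1 fell and 6 did not pass, near the 38.1% called over all genes, with a median of 0.01. In the fit of the 14441 genes above the median of all transcript clusters, 8792 were called. Of 8 lysosomal transporters in that fit, 3 rose and 1 fell. SLC36A4, for a carrier of proline and tryptophan, fell by 1.61 ± 0.11 (SE, n = 3 per group; limma adjusted p = 9.3e-06) and had means of 7.35 ± 0.18 in PD 0332991 cells and 8.96 ± 0.13 in DMSO cells (SD). SLC38A7, for a lysosomal glutamine and asparagine exporter, rose by 0.58 ± 0.09 (adjusted p = 0.000851), and SLC38A9, for the arginine-sensing transporter of the lysosome, rose by 0.42 ± 0.08 (adjusted p = 0.0035). Among mitochondrial carriers 10 of 11 listed genes were measured, and 4 rose, 2 fell and 4 did not pass (median 0.00), against 19.6% higher and 18.5% lower over all genes. In the fit of the 14441 genes, 4514 were called higher and 4278 lower. Of 8 mitochondrial carriers in that fit, 4 rose and 2 fell. The second fall, of SLC25A13, for an aspartate and glutamate carrier and named after its values were seen, had a difference of -0.26 (limma adjusted p = 0.0144) and was no longer called without PD 0332991 replicate 3, without DMSO replicate 2 or after quantile normalization. Without PD 0332991 replicate 1 there were 3 falls. SLC25A29, for a carrier of basic amino acids, rose by 2.06 ± 0.07 (adjusted p = 3.73e-07), with means of 8.91 ± 0.03 in PD 0332991 cells and 6.84 ± 0.09 in DMSO cells. The serine carrier gene SFXN1 fell by 1.11 ± 0.11 (adjusted p = 6.53e-05) while its relative SFXN3 rose by 1.49 ± 0.06 (adjusted p = 7.58e-07).

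Among enzymes that make or use the carried amino acids, falls outnumbered rises. Of the 34 listed, 28 were measured, and 16 fell, 4 rose and 8 did not pass (median -0.52), against 18.5% lower and 19.6% higher over all genes. In the fit of the 14441 genes above the median of all transcript clusters, 17 of 27 enzymes fell and 4 rose. Of all 14441 genes, 4278 fell and 4514 rose. The deepest fall was in ASNS, the asparagine synthetase gene, with values of 10.58, 10.71 and 10.85 in PD 0332991 cells and 13.03, 13.12 and 13.19 in DMSO cells, and no overlap. ASNS fell by 2.40 ± 0.09 (SE, n = 3 per group; limma adjusted p = 4.35e-07). ODC1, for ornithine decarboxylase of polyamine synthesis, fell by 2.22 ± 0.08 (adjusted p = 4.95e-07). The list also held GCLM, GOT1 and PYCR1, named after their values were seen, for enzymes of glutathione, aspartate and proline synthesis, with differences of -1.61, -1.57 and -1.52 (adjusted p = 6.88e-07, 3.32e-06 and 1.39e-05). The 4 that rose were ASS1 and, named after their values were seen, BCKDHB, DBT and MAT2A. BCKDHB and DBT, for subunits of the complex that breaks down branched-chain keto acids, rose by 1.21 and 1.04, and MAT2A, for the enzyme that makes S-adenosylmethionine, rose by 0.42 (adjusted p = 7.57e-06, 1.39e-05 and 0.00179). ASS1 rose by 3.81 ± 0.15 (adjusted p = 5.43e-07). ASS1 encodes argininosuccinate synthase, which lets cells rebuild arginine from citrulline. Its values were 10.08, 10.44 and 10.17 in PD 0332991 cells, against 6.13, 6.65 and 6.50 in DMSO cells, so that the arginine carrier gene SLC7A1 and ASS1 differed in opposite directions on the same arrays.

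**Figure D4:**
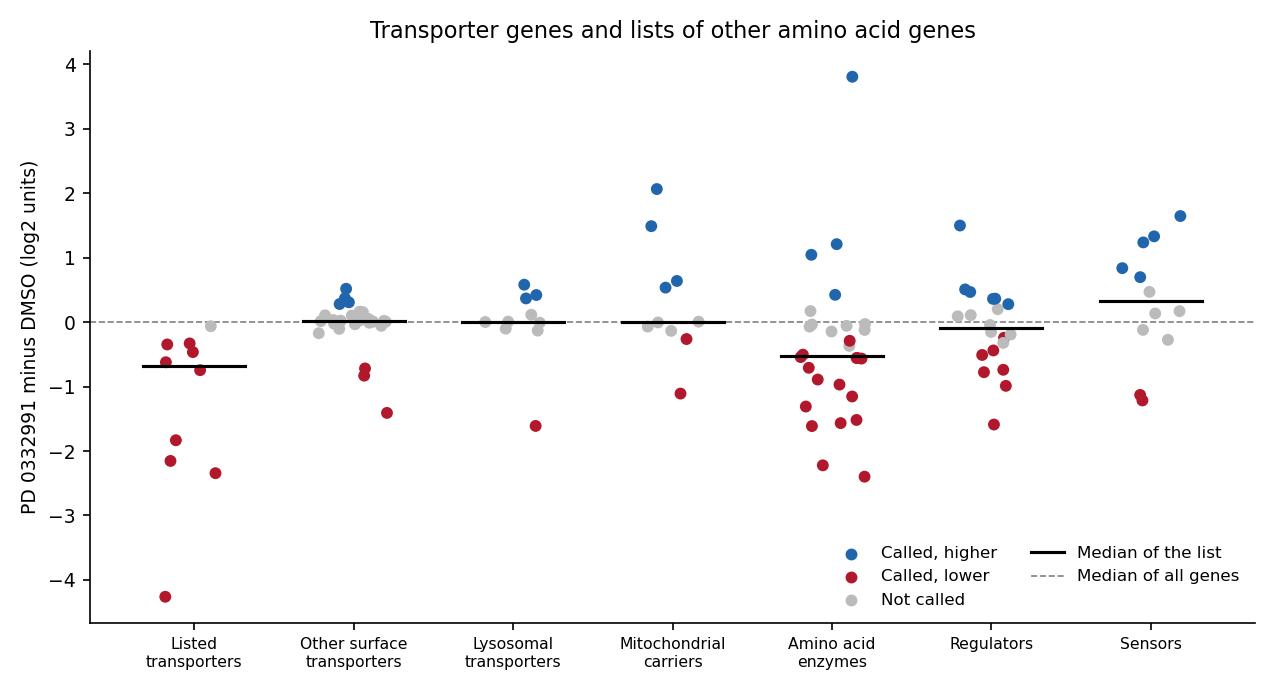
Differences, PD 0332991 minus DMSO in log2 units, of the 10 listed transporter genes and of 6 lists of other amino acid genes, 1 point per gene, coloured by the limma call, with list medians as black lines and the median of all genes dashed. The enzymes' median lies at -0.52 with ASS1 alone above 3, and the sensors' median lies at 0.32.

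Of 22 listed regulators of carrier expression and turnover 20 were measured, and 7 fell, 6 rose and 7 did not pass (median -0.10). Calls over all genes, 18.5% lower and 19.6% higher, were also split about evenly. In the fit of the 14441 genes above the median of all transcript clusters, 8792 were called. Of 19 regulators in that fit, 8 fell and 6 rose. ATF4, the transcription factor that raises many carrier genes under amino acid shortage, fell by 0.99 ± 0.08 (SE, n = 3 per group; limma adjusted p = 1.87e-05) and had means of 11.70 ± 0.07 in PD 0332991 cells and 12.69 ± 0.08 in DMSO cells (SD). MYC, whose product is known to raise SLC7A5 and SLC1A5, fell by 1.59 ± 0.09 (adjusted p = 4.7e-06). NFE2L2, for the factor NRF2 that acts on SLC7A11, rose by 0.51 ± 0.07 (adjusted p = 0.000564), and the stress factor gene DDIT3 rose by 1.498 ± 0.199 (adjusted p = 0.000428). These are transcript levels, and the activity of the factors was not measured on the arrays.

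Genes of amino acid sensing upstream of mTORC1 gave 5 rises and 2 falls. The list held 13 genes, of which 12 were measured and 5 did not pass, and its median was 0.32. Over all genes 19.6% were called higher and 18.5% lower. In the fit of the 14441 genes above the median of all transcript clusters, 4514 were called higher and 4278 lower. Of the 12 sensors in that fit, 5 rose and 2 fell. RRAGD and RRAGC, for Rag GTPases that hold mTORC1 at the lysosome when amino acids are present, rose by 1.65 ± 0.11 and 1.33 ± 0.07 (SE, n = 3 per group; limma adjusted p = 8.36e-06 and 2.88e-06). CASTOR2, a relative of the arginine sensor CASTOR1, rose by 1.24 ± 0.14 (adjusted p = 0.000179), with means of 10.30 ± 0.23 in PD 0332991 cells and 9.07 ± 0.21 in DMSO cells (SD). The 2 that fell, SESN2 and LARS1, were named after their values were seen. SESN2, for a leucine sensor, fell by 1.22 ± 0.08, and LARS1, the leucyl-tRNA synthetase gene, fell by 1.13 ± 0.06 (adjusted p = 6.6e-06 and 3.73e-06).

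**Figure D5:**
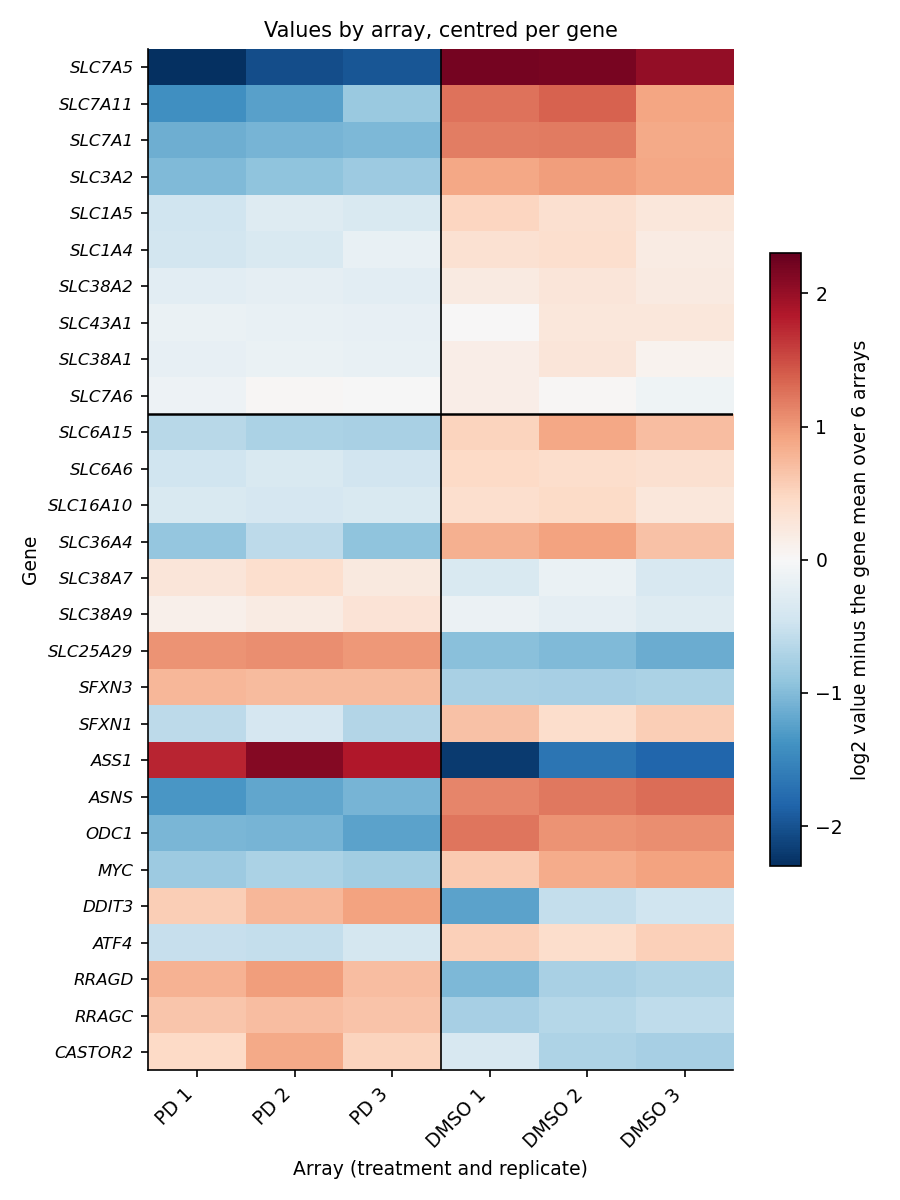
Log2 value minus the gene's mean over the 6 arrays (colour), for the 10 transporter genes above the line and the called list genes with the largest differences below it, with PD 0332991 arrays left of DMSO arrays. SLC7A5 and ASS1 show the strongest contrast, in opposite directions, and SLC7A6 shows almost none.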

How the data were processed

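The deposited file is a single table of log2 expression values, 65535 transcript clusters by 6 arrays. That number is the row limit of older spreadsheets less a header line, so whether the table holds every cluster of the array is not known, and shares, ranks and genes not measured refer to its rows alone. The submitters' processing notes name Affymetrix Expression Console. Its version, and how arrays were normalized, were not stated. The labels name both an Affymetrix and a NuGEN preparation kit. That the scale is log2 was judged from its range, 1.87 to 19.9. Platform annotation gave 22685 clusters 1 symbol, 1385 several symbols and 41465 none. For 296 genes with several clusters the one with the highest mean was used. Treatments were compared as PD 0332991 minus DMSO with limma 3.58.1 in R 4.3.3 (lmFit, eBayes, no further scaling), with Benjamini-Hochberg adjustment over 22375 genes, two-sided. Genes at an adjusted p under 0.05 are called. The number of arrays limits the precision, and the median SE of a difference was 0.0875.

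The 10 genes, 6 lists, 2 marker lists, motifs and rules were chosen with earlier results of these data known. Named besides the 10 genes were up to 3 called genes per list with the largest differences, ASNS, ATF4, MYC, NFE2L2, SLC7A7, SLC7A8 and SLC43A2, and the 5 genes most like SLC7A5 and SLC7A11. Further genes were named after their values were seen, as stated beside them. The check of the cell type used 11 markers, epithelial and lung ones and the mesenchymal marker VIM. KRT8 rose by 0.79, VIM fell by 0.57 (limma adjusted p = 9.1e-05 and 0.000296) and 9 did not pass. Coordinates are printed for RefSeq promoter windows alone. Alternatives changed the scaling, filter, probe set rule, eBayes options, weights, block or arrays used.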

Additional observations from a re-analysis of the deposited data

How the results depend on the processing

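Over 15 alternatives, the count of called genes ran from 7483 without DMSO replicate 2 to 10296 with array weights, against 8529. Leaving out 1 array in turn gave 7483 to 8075 genes and 8 or 9 of the 10 transporters. Leaving out DMSO replicate 1 and PD 0332991 replicate 2 together, chosen after seeing the data, gave 7634 genes and 9 transporters. SLC38A1 lost its call after quantile normalization (-0.14) and SLC43A1 without DMSO replicate 2 (-0.31), and the causes were not tested. The counts of called genes ran from 5 to 9 among other plasma membrane carriers, 4 to 5 among lysosomal and 5 to 7 among mitochondrial carriers, 19 to 22 among enzymes, 10 to 15 among regulators and 7 to 10 among sensors. For the 22 list genes named by the rule, all 329 values kept their direction where called and their side of the threshold. Most of the 22 were picked on these data as called genes with the largest differences. Their kept calls are therefore no measure of how stable the lists are. Of 17 called genes named after their values were seen, 13 stayed called under every alternative run, and SLC1A3, SLC38A4, SLC25A13 and PECAM1 did not, with adjusted p up to 0.0637, 0.0984, 0.0899 and 0.145. With the replicate number as a block, 7708 genes and 9 transporters were called. Whether the replicate numbers pair the samples is not stated. Same-numbered arrays' deviations correlated at -0.329, -0.147 and 0.098, which with 3 arrays per group cannot settle it. The table holds no detection flags, so low values are not shown to be above background.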
